A study of Mus musculus with 18 samples.

Results

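Serpins were followed through the RNA-seq table of the Alb-R26Met mouse model of liver cancer. The members are the rows whose gene symbol begins with Serpin, 61 of 28442 genes. Of these, 28 passed the filter on low values (6 or more samples at 1 or above after scaling) and were tested, and 33 did not pass. Among the 33, 25 were listed at 0 in every sample and 8 rose above 0 somewhere. Only 3 of the 8 reached 3 TPM (transcripts scaled to a fixed total, with gene length taken into account), namely Serpina3h with 6 in tumor 7, Serpina5 with 5 in tumor 9 and Serpinb1a with 3 in tumor 10.

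The samples are 6 non-tumoral livers and 12 advanced tumors, 18 samples from 17 male mice, with tumors 11 and 12 taken from 1 mouse. Per the paper's methods, the mice of both groups are first-generation offspring of parents from different strains. All mice of both groups carry the R26stopMet allele, a mouse-human chimeric Met transgene at the Rosa26 locus behind a stop cassette, and Alb-Cre, a recombinase that is driven by the Albumin promoter and removes the cassette in the hepatocyte lineage. The livers came from Alb-R26Met mice in which no tumor had developed, so they are controls without tumor but not without the transgene. Liver donors were 52 to 71 weeks old (median 56.5) and tumor donors 49 to 72 weeks (median 65). For tumors 3 and 10 the mouse number in the sample label differs from that in the paper's list of mice. Their ages, 59 and 67 weeks, are those of that list. Sample names carry the tag E19 in 2 livers and 7 tumors and the tag E20 in 4 livers and 5 tumors, and the sources used here do not state what the tags mean. Tumors 11 (E19) and 12 (E20) carry different tags although they share a mouse. Livers and tumors are numbered separately.

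Serpins are a family of folded proteins of which most inhibit serine proteases, and some cysteine proteases. An exposed stretch, the reactive centre loop, is offered to the protease as bait, and when the protease cuts it the loop inserts into the body of the serpin and drags the trapped protease along, so each inhibitor is used once. Hepatocytes secrete many of them into plasma, where they restrain neutrophil elastase, thrombin, plasmin and the complement proteases. A few members have lost inhibition and carry hormones or fold collagen, and members of clade B mostly stay inside cells.

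The Serpina1a to Serpina1e copies encode alpha-1-antitrypsin, and they differ from each other in the loop that selects the protease as well as elsewhere. Their loop-coding stretches of 69 bases are shown because the composition of this gene group is a result further on. Each was read from the GENCODE transcripts on GRCm38, lies within 1 coding exon on the minus strand of chromosome 12 and is written 5′ to 3′. Capitals mark the 15 positions at which the 5 copies are not all the same.
Serpina1a at chr12:103853765-103853833: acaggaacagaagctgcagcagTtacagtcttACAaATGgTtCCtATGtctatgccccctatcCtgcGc
Serpina1b at chr12:103728332-103728400: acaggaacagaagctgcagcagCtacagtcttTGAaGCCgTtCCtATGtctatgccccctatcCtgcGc
Serpina1c at chr12:103895102-103895170: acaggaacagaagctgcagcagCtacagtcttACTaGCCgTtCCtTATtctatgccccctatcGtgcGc
Serpina1d at chr12:103763770-103763838: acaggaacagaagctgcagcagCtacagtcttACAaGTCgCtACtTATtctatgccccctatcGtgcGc
Serpina1e at chr12:103947108-103947176: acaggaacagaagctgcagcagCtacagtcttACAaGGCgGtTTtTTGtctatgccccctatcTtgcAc

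Pairs of copies differed at 4 to 10 of the 69 loop bases, with Serpina1c and Serpina1d the closest (4) and Serpina1a and Serpina1e the farthest (10). Over the whole coding sequence, Serpina1b to Serpina1e were 96.3 to 96.7% identical. Sequences of this kind share reads. Of all stretches of 100 bases, the read length, 58.5% in Serpina1c occur unchanged in another gene, 49.9% in Serpina1a, 29.3% in Serpina1d, 20.6% in Serpina1b and 14.8% in Serpina1e. The split among the 5 copies therefore rests on how the authors' quantification shared such reads, and each copy's own value is less certain than their sum. These shares were computed on the reference genome, whereas the mice come from a cross of different strains. The part of strain differences in the levels of single Serpina1 or Serpina3 copies was not tested. For Serpina11 the share was 42.4% (with Gm28577), for Serpina3f, Serpina3g, Serpina3k and Serpina3m it was 3.58 to 6.09%, for Serpina3n it was 0.204% and for the other tested members it was 0.

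Promoters are shown for 3 members, Serpina1b and Serpina1c as a pair of copies whose log2 fold changes had opposite signs (neither was called), and Serpina12 as the member with the greatest difference. Each holds 250 bases before the start and 50 after it, from RefSeq on GRCm38.p6, minus strand, written 5′ to 3′. Capitals mark matches to GTTAAT, letters common in promoters of hepatocyte genes, and to TTGCNNAA, a form of the C/EBP motif, both searched on both strands.
Serpina1b at chr12:103738140-103738439: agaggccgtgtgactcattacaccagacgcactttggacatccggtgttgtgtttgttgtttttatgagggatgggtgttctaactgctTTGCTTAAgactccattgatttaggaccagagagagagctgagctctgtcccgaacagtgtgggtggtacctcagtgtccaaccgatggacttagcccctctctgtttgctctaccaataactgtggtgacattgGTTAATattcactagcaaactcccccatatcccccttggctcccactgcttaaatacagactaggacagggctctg
Serpina1c at chr12:103904901-103905200: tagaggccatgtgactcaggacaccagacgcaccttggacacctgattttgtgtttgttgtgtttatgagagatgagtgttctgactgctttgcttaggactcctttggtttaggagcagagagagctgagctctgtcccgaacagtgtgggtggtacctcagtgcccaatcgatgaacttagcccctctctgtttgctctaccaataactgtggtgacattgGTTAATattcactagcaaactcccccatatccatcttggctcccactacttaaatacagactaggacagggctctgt
Serpina12 at chr12:104044394-104044693: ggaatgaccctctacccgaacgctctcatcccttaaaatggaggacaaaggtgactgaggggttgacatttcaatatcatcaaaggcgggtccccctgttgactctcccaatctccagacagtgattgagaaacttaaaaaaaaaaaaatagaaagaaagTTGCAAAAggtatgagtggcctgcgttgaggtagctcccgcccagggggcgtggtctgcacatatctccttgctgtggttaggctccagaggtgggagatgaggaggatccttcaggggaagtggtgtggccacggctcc

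The promoters of Serpina1b and Serpina1c were 91.4% identical. A promoter was matched by symbol for 21 of the 28 tested members, the first entry being used where there were several. GTTAAT occurred in 7 of them (33.3%), all 5 Serpina1 copies, Serpina7 and Serpinb8, against 7.10% of 32851 mouse promoters of the same length. TTGCNNAA occurred in 8 (38.1%), among them Serpina1a, Serpina1b, Serpina1d, Serpina1e and Serpina12 but not Serpina1c, against 10.8% of all promoters. For 4 other motifs, searched on both strands as well, the shares in members and in all promoters were 38.1% and 37.4% for CCAAT, 23.8% and 7.81% for TGANTCA (the AP-1 motif), 9.52% and 13.6% for TATAAA, and 4.76% and 1.41% for CAAAGTNCA (the HNF4 core). Matches of different motifs may overlap, as CCAAT on the minus strand and GTTAAT do in the Serpina1 copies shown. The Serpina1 copies are near-duplicates of each other, so their matches are not separate cases, and a match describes letters and not a bound site.

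Values are TPM rounded to whole numbers in the table. They were divided by a scale factor per sample, and levels below are these scaled TPM unless said otherwise. Totals lay between 835144 and 884597 in livers and between 845356 and 907513 in tumors, and the reads behind a value are not kept in TPM. A single gene, Siglece, made up 17.9 to 29.5% of a liver's total and 21.5 to 53.4% of a tumor's, except in tumor 2, where it made up 82.9%. The scale factor of tumor 2 was 0.191 against 0.765 to 1.41 in the other samples, so that 1 unit of the table stands for 5.25 scaled TPM there, and its low values are coarse. Tumor 10 was the lowest tumor for 12 of the 28 tested members and the highest for 4. Its 9 hepatocyte markers summed to 35540, below the lowest liver (36760). Alb alone gave 20280 of this sum, and single markers went different ways. Cps1 was at 2.65 and Pck1 at 1.77, against liver means of 1234 and 754, while Cyp2e1 was at 2199 against 1987. Liver 1 had the lowest summed hepatocyte and endothelial markers of the livers. Cholangiocyte markers summed to 9.45 to 19.4 in livers and 97.7 to 1157 in tumors, with Cldn4 and Cftr at 0 in every sample. Most of the highest sum, in tumor 11, was Spp1 (936) and Tspan8 (208). Only 3 of the 8 markers passed the filter, and Sox9 among them averaged 6.3 in livers and 9.5 in tumors.

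With tumors compared with livers, 10 of the 28 tested Serpin genes differed, 7 higher and 3 lower (limma, Benjamini-Hochberg adjusted p under 0.05 over all genes tested). Among all 11452 genes tested the share called was 19%, 10.3% higher and 8.73% lower. Among the 7 that rose were Serpina12, Serpina6, Serpinb6b, Serpinh1, Serpina3f and Serpina3n, and the 3 that fell were Serpina4-ps1, Serpine2 and Serpina3k. Of the 28 tested members 5 were called with an at least 2-fold difference, against 9.69% of all genes tested. At an unadjusted p under 0.05 there were 19 of the 28 members, against 30.7% of all genes tested, and the 9 of them that missed the adjusted threshold had positive log2 fold changes. The median log2 fold change was 0.46 over the 28 members and -0.04 over all genes tested. In bulk tissue, fewer cells of a type and less RNA per cell cannot be told apart. With liver 2 left out 5 members were called and with liver 3 left out 6, where 1642 and 1683 of the 11452 genes were called. Without liver 1 there were 12 members (2483 genes), without tumor 2 there were 14 (3074 genes, 26.8%) and without tumor 10 there were 14 (2167 genes). The main fit called 2175 genes. With array weights, which give less weight to samples that vary more, 21 were called, against 40% of all genes. With the values as deposited, without scaling, 7 of 31 tested members were called, 4 higher and 3 lower, against 1341 of 13309 genes. The median of all genes moved to -0.18. Serpina12, Serpina6, Serpinb6b, Serpina4-ps1 and Serpine2 were among those called then, as was Serpinb1a, which did not pass the filter after the main scaling.

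**Figure D1:**
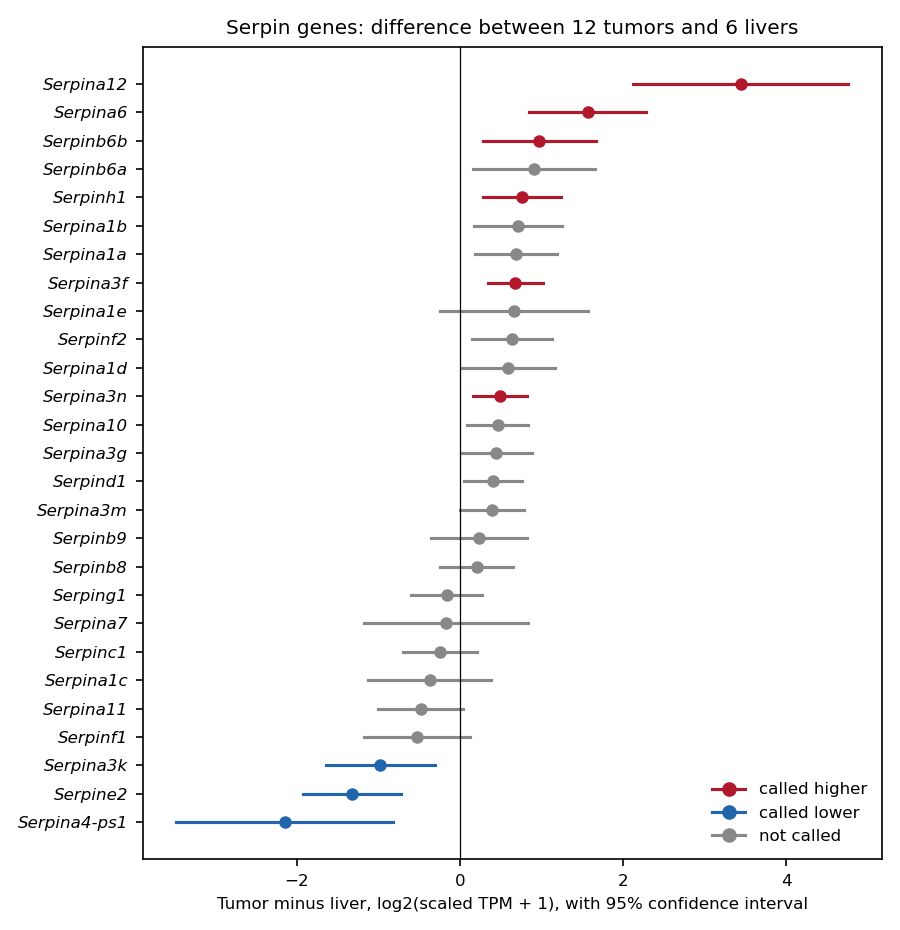
Difference between tumors and livers for 27 of the 28 tested Serpin genes, on the log2(scaled TPM + 1) scale, with points for the estimate and lines for the 95% confidence interval of the limma fit. Serpina12 (3.45) lies farthest to the right and Serpina4-ps1 (-2.15) farthest to the left, and called genes are red (6 higher) or blue (3 lower), the others grey.

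No member's tumor-liver difference was found to differ between the tags (limma interaction term, 0 of 28 members and 0 of 11452 genes at an adjusted p under 0.05). At an unadjusted p under 0.05 there were 0 members and 334 genes (2.92%). All 10 called members kept their direction within E19 samples alone and within E20 samples alone, as did 27 of the 28 tested members. The samples of both tags had entered the fit that called them, so this is no separate support. Of the 10 called members, 3 passed the threshold within E19 (Serpina4-ps1, Serpina6 and Serpine2, where 12.5% of all genes did) and 2 within E20 (Serpina12 among them, where 4.77% did).

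Serpina12 encodes vaspin, a secreted serpin best known from adipose tissue that inhibits kallikrein 7, and it showed the greatest difference of the family. The gene lies on chromosome 12 from 104028769 to 104044443 of GRCm38. Livers 1 to 6 were at 4.30, 3.77, 2.83, 7.92, 18.1 and 4.0. Tumors ranged from 1.77 in tumor 10 through a median of 96.6 to 156 in tumor 1. Thus 11 of 12 tumors lay above every liver, the next lowest being tumor 8 at 27.2, and tumor 10 lay below every liver. Livers averaged 6.82 ± 5.80 (SD, n = 6) and tumors 95.9 ± 47.4 (SD, n = 12), and the log2 fold change was 3.45 with a standard error of 0.63 (limma, adjusted p = 0.000598). It stayed called whichever sample was left out. Within E19 samples the log2 fold change was 2.41 (adjusted p = 0.259) and within E20 samples 4.02 (adjusted p = 0.000248), both from limma, and tumor 10 is an E19 sample.

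The hormone carriers bind their ligand in plasma and release it when the loop is cut or moves. Serpina6 encodes corticosteroid-binding globulin, the carrier of glucocorticoids, and lies on chromosome 12 from 103646630 to 103657218. In livers 1 to 6 it stood at 22.9, 75.4, 146, 84.1, 82.0 and 134. Tumors ranged from 145 in tumor 1 through a median of 209 to 583 in tumor 2. As deposited tumor 2 is at 111, the lowest of the tumors, so its place as highest rests on its scale factor. Again 11 of 12 tumors lay above every liver, and tumor 1 lay just within the liver range. Livers averaged 90.9 ± 44.6 (SD, n = 6) and tumors 262 ± 140 (SD, n = 12), and the log2 fold change was 1.57 with a standard error of 0.34 (limma, adjusted p = 0.00274). Liver 1 was well below the other livers, and without it the log2 fold change was 1.22, still called.

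Serpina7, the thyroxine-binding globulin on the X chromosome, was not called (log2 fold change -0.17, limma, adjusted p = 0.859). Its livers ranged from 6.6 to 16.5. In 11 tumors it lay between 3.31 and 15.7, and 6 of these were below every liver, while tumor 10 stood at 106. In the deposited values this is 120 in tumor 10 against 2 to 22 in the other tumors. Tumor 10 was therefore the lowest tumor for Serpina12 and the highest for Serpina7.

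Serpine2 encodes protease nexin-1, which inhibits thrombin and urokinase at the cell surface, and lies on chromosome 1 from 79794317 to 79858665. Livers 1 to 6 were at 1.43, 3.77, 10.4, 5.94, 5.32 and 4.0. Tumors ranged from 0 in tumor 2 through a median of 1.08 to 3.0 in tumor 4. Below every liver lay 8 tumors, and the other 4 lay between liver 1 and liver 2. Livers averaged 5.14 ± 3.01 (SD, n = 6) and tumors 1.35 ± 0.850 (SD, n = 12). It fell by 1.33 on the log2 scale with a standard error of 0.29 (limma, adjusted p = 0.00252). The call held whichever sample was left out.

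Serpinf2, the alpha-2-antiplasmin that neutralizes plasmin in blood, was abundant in both groups. It stood at 344 ± 120 (SD, n = 6) in livers and 533 ± 200 (SD, n = 12) in tumors and missed the threshold (log2 fold change 0.64, limma, adjusted p = 0.0617). It passed when liver 1, tumor 2 or tumor 10 was left out (adjusted p 0.0209, 0.0432 and 0.0374 from limma). Of the untested inhibitors of plasmin and its activators, Serpinb2 reached 1 in 1 tumor and Serpine3 was listed at 0 throughout.

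**Figure D2:**
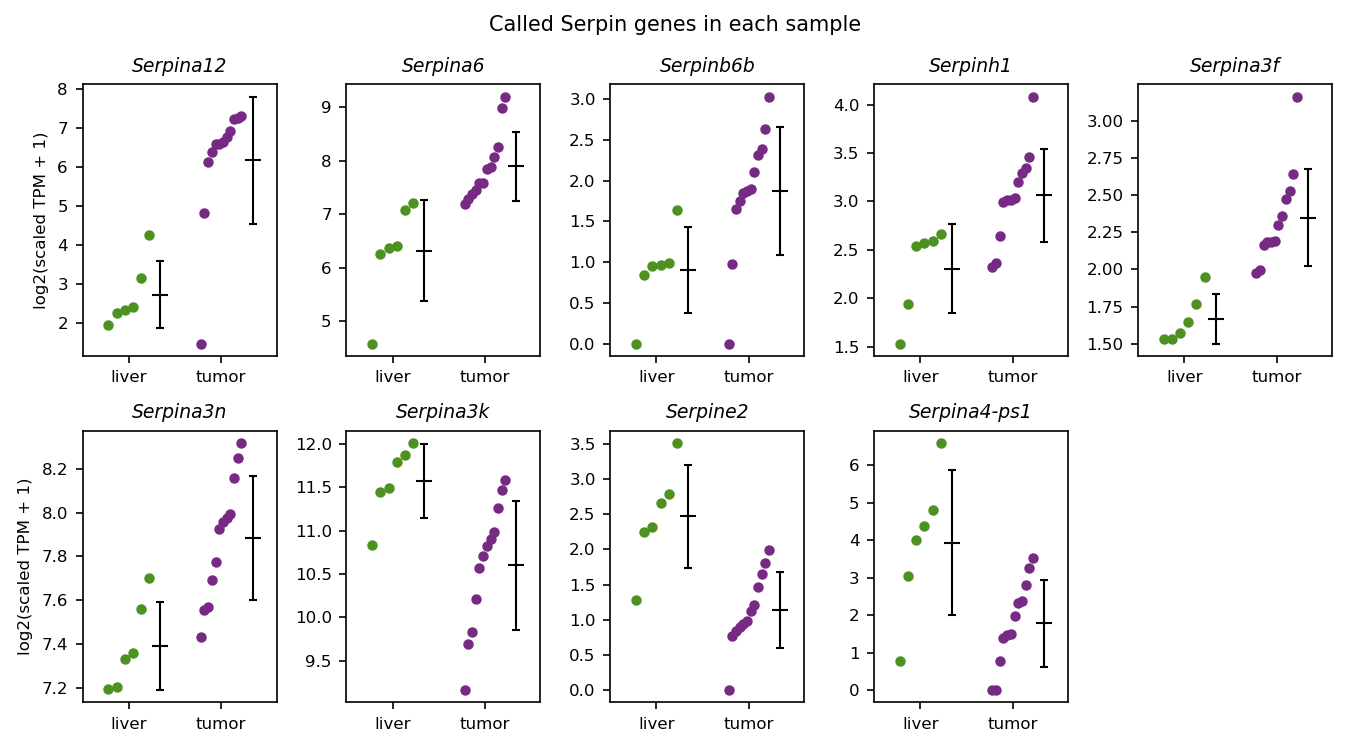
Values of 9 of the 10 called Serpin genes in each of 6 livers (green) and 12 tumors (purple), sorted within a group, as log2(scaled TPM + 1), with the mean and SD at the right of each group and an axis of its own in each panel. Serpina12 shows 11 tumors above every liver and tumor 10 below, and Serpine2 shows 8 tumors below every liver.

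The 5 alpha-1-antitrypsin copies were among the 6 most abundant members, and none was called. Alpha-1-antitrypsin is the chief inhibitor of neutrophil elastase in plasma. Their summed level was 8891 to 15383 in livers (median 12853) and 5483 to 26740 in tumors (median 16444). In 7 tumors the sum was above every liver, with tumor 7 the highest, and in tumor 10 it was below every liver.

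Serpina1a stood at 2115, 1798, 2342, 2738, 3003 and 2585 in livers 1 to 6, and at 1962 (tumor 10) to 7212 (tumor 7) in tumors, with a median of 3915. Serpina1b stood at 2776, 1772, 2337, 2805, 2960 and 2646 in livers, and at 1693 (tumor 10) to 6170 (tumor 7) in tumors, with a median of 4155. Serpina1d stood at 1620, 981, 1198, 1456, 1372 and 1365 in livers, and at 589 (tumor 10) to 2973 (tumor 3) in tumors, with a median of 2188. For these 3 copies 10 or 11 tumors lay above every liver, and tumor 10 was the lowest tumor in each. Their log2 fold changes were 0.69, 0.71 and 0.60 (limma, adjusted p = 0.0517, 0.0580 and 0.144). Without tumor 10 the log2 fold changes were 0.78, 0.83 and 0.76, and all 3 passed the threshold (limma, adjusted p = 0.0150, 0.00881 and 0.00736). Without tumor 2 Serpina1a and Serpina1b passed (0.0198 and 0.0276), and without tumor 8 Serpina1a did (0.0487).

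Serpina1c had the highest mean of the copies in livers and the third in tumors. It stood at 2151, 4084, 5572, 5575, 6582 and 4663 in livers 1 to 6, and at 719 (tumor 10) to 6459 (tumor 7) in tumors, with a median of 3755. No tumor was above every liver, and the log2 fold change was -0.37 with a standard error of 0.36 (limma, adjusted p = 0.544). Serpina1e stood at 229, 1285, 2136, 1498, 1466 and 862 in livers and at 519 (tumor 10) to 3937 (tumor 7) in tumors, with a median of 1560. Its groups overlapped widely (log2 fold change 0.66, standard error 0.44, limma, adjusted p = 0.326), and liver 1 stood far below the other livers.

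The makeup of the sum was followed as a description, with no test. Serpina1c made up 38.5 to 42.8% of the sum in livers 2 to 6 and 24.2% in liver 1, and 13.1 to 28.8% in tumors (median 23.9%). In 7 tumors its share was below every liver. Serpina1a made up 17.2 to 23.8% in livers and 21.9 to 35.8% in tumors, with 8 tumors above every liver. Serpina1e made up 2.58% in liver 1 against 7.11 to 15.7% in the other livers. Liver 1 thus lay closer to the tumors than to the other livers in its Serpina1b, Serpina1c and Serpina1d shares. Its 23 liver acute phase genes summed to 16880, within the range of the other livers (10070 to 18040), and its hepatocyte markers summed to 36760. The part of either, or of the sharing of reads among the copies, was not tested.

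**Figure D3:**
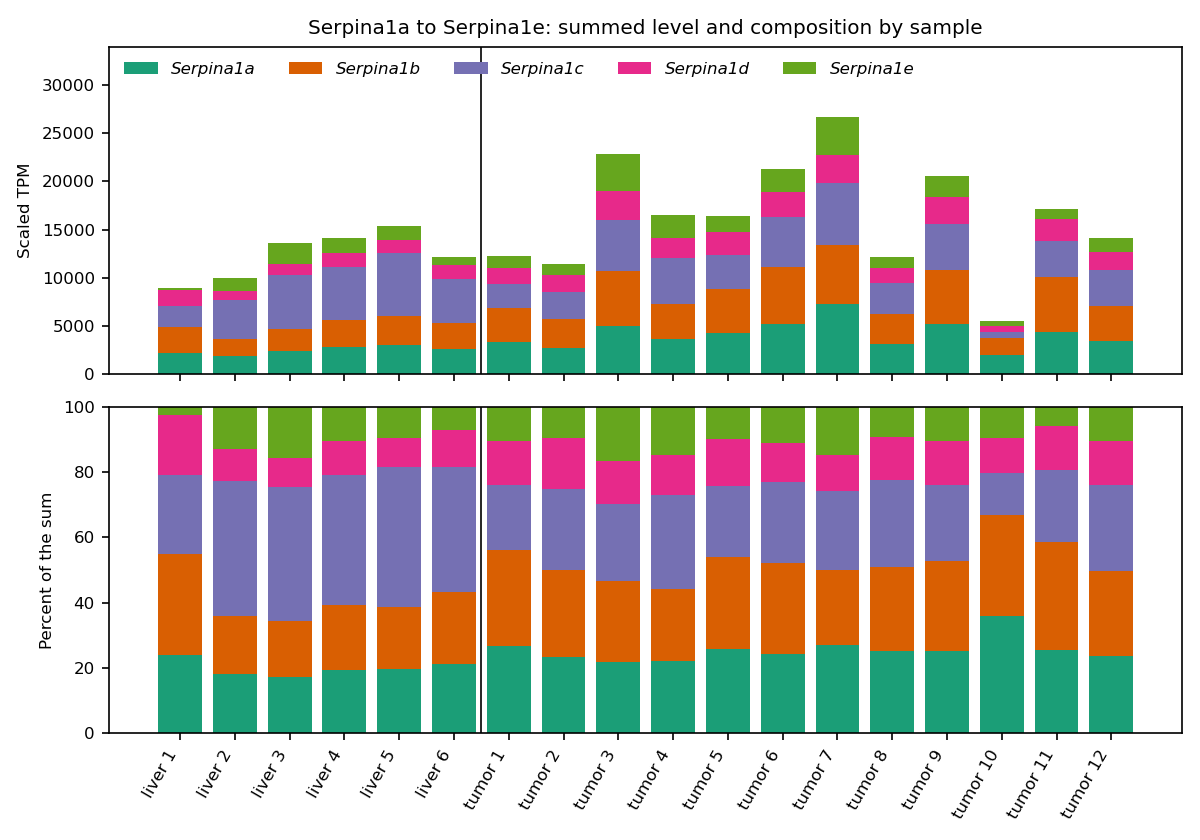
Level of Serpina1a to Serpina1e in each sample as stacked bars, in scaled TPM (upper panel) and as percent of the sum of the 5 genes (lower panel), livers to the left of the line and tumors to the right. The Serpina1c band covers 38.5 to 42.8% in livers 2 to 6, 24.2% in liver 1 and 13.1 to 28.8% in tumors, and the bar of tumor 10 is the shortest at 5483.

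The antichymotrypsin-like Serpina3 genes are an expanded mouse group around the single human antichymotrypsin gene, with loops that differ between copies. Of 10 such rows, 5 were tested, 2 rose and 1 fell, where 10.3% and 8.73% of all genes tested did. Serpina3k, the most abundant of them, encodes contrapsin, an inhibitor of trypsin-like proteases, and lies on chromosome 12 from 104338486 to 104345739. In livers 1 to 6 it stood at 1825, 2786, 3749, 3543, 4118 and 2889. Tumors ranged from 572 in tumor 10 through a median of 1743 to 3065 in tumor 7, and 7 lay below every liver. Livers averaged 3152 ± 825 (SD, n = 6) and tumors 1733 ± 789 (SD, n = 12). It fell by 0.97 on the log2 scale with a standard error of 0.32 (limma, adjusted p = 0.0366). This call is close to the threshold and was lost when 1 of livers 2, 3, 4, 5 and 6 or of tumors 1, 8 and 11 was left out (adjusted p from 0.0519 to 0.0864) and without scaling (0.0598). Its log2 fold change lay between -1.12 and -0.84 in all 18 fits without 1 sample.

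Serpina3n, known as an acute phase inhibitor of granzyme B and leukocyte elastase, lies on chromosome 12 from 104406646 to 104414334. Its livers, in order, were at 188, 145, 146, 207, 160 and 163. Tumors ranged from 172 in tumor 8 through a median of 245 to 318 in tumor 11, and 8 lay above every liver. Livers averaged 168 ± 24.4 (SD, n = 6) and tumors 239 ± 46.8 (SD, n = 12), and the log2 fold change was 0.49 with a standard error of 0.16 (limma, adjusted p = 0.0332). The call was lost when 1 of livers 2, 3, 5 and 6 or of tumors 6 and 11 was left out (adjusted p from 0.0523 to 0.0882), and without scaling (0.774).

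Serpina3f, on chromosome 12 from 104214544 to 104221129, was low in every sample. Livers 1 to 6 were at 2.87, 1.89, 1.89, 1.98, 2.13 and 2.40, and tumors ranged from 2.93 in tumor 3 through a median of 3.75 to 7.96 in tumor 10. As deposited these are 2 to 4 TPM in livers and 1 to 9 in tumors, and the groups overlapped. After scaling, every tumor lay above every liver for 2 members, Serpina3f among them, and for 2.31% of all genes, while 0 members and 0.899% of genes had every tumor below every liver. As deposited, 0 members separated the groups in either direction, against 0.454% of all genes higher and 0.856% lower. The log2 fold change was 0.68 with a standard error of 0.16 (limma, adjusted p = 0.00495), called whichever sample was left out and not called without scaling (adjusted p = 0.260).

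Serpina3m and Serpina3g were not called (log2 fold changes 0.40 and 0.45, limma, adjusted p = 0.157 and 0.152). Within the trio of Serpina3k, Serpina3m and Serpina3n, Serpina3k made up 81.5 to 93.2% of the sum in livers and 55.9 to 87.4% in tumors, with 7 tumors below every liver. The lowest share was in tumor 10, and the lowest among livers was again in liver 1. The sum itself was 2239 to 4441 in livers and 1023 to 3505 in tumors.

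Among the other members of clade A, Serpina4-ps1, a transcribed pseudogene on chromosome 12 from 104077959 to 104086920, varied most between livers. The 6 livers were at 0.717, 19.8, 94.5, 26.7, 14.9 and 7.20. Tumors ranged from 0 in tumors 10 and 11 through a median of 2.37 to 10.5 in tumor 2, where the table lists 2. It fell by 2.15 on the log2 scale with a standard error of 0.64 (limma, adjusted p = 0.0220). Only 3 tumors lay below liver 1, and the call was lost without liver 2, liver 3 or liver 4 (adjusted p = 0.0534, 0.0814 and 0.0604, limma).

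Serpina10, the protein Z-dependent inhibitor of activated coagulation factor X, stood at 74.1 ± 24.1 (SD, n = 6) in livers and 100.2 ± 19.9 (SD, n = 12) in tumors and was not called (log2 fold change 0.46, limma, adjusted p = 0.0801). It passed without liver 1 or liver 5 (0.0315 and 0.0328). Serpina11 stood at 76.4 ± 30.7 (SD, n = 6) in livers and 52.7 ± 16.96 (SD, n = 12) in tumors (log2 fold change -0.48, limma, adjusted p = 0.196), and passed without liver 1 (0.0313).

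The tested members of clade A other than Serpina7 lie in 1 cluster of 23 Serpin genes, which covers 797.7 kb of chromosome 12 from 103616675 to 104414334. The cluster holds 15 tested members, 4 of them called higher and 2 called lower, where 10.3% and 8.73% of all genes tested were called in these directions. Within the cluster Serpina12 and Serpina4-ps1 had the largest log2 fold changes, in opposite directions.

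The coagulation inhibitors were abundant and not called. Serpinc1, which encodes antithrombin, stood at 778 ± 163 (SD, n = 6) in livers and 674 ± 227 (SD, n = 12) in tumors (log2 fold change -0.25, 95% confidence interval -0.70 to 0.21, limma, adjusted p = 0.492). Serpind1, which encodes heparin cofactor II, stood at 169 ± 28.9 (SD, n = 6) and 227 ± 48.2 (SD, n = 12), with a log2 fold change of 0.41 (interval 0.05 to 0.76, limma, adjusted p = 0.104). Without tumor 10 Serpind1 passed the threshold (0.0340).

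Serping1, the inhibitor of C1 esterase and of plasma kallikrein, had a log2 fold change of -0.16 (95% confidence interval -0.60 to 0.27, limma, adjusted p = 0.656) from 288 ± 67.9 (SD, n = 6) in livers and 257 ± 66.1 (SD, n = 12) in tumors. Serpinf1, the pigment epithelium-derived factor that restrains new vessel growth, had one of -0.52 (interval -1.18 to 0.13, limma, adjusted p = 0.276). Its highest tumor was tumor 2 (410) and its lowest tumor 4 (77.9). The table lists 78 in both, so this contrast rests on the scale factor of tumor 2. Neither interval excludes 0.

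Serpinh1 encodes HSP47, a chaperone of the endoplasmic reticulum that folds procollagen and inhibits no protease, and lies on chromosome 7 from 99345375 to 99353239. The livers, in order, were at 5.02, 2.83, 1.89, 4.95, 5.32 and 4.80. Tumors ranged from 4.0 in tumor 4 through a median of 7.14 to 15.9 in tumor 10, and 9 lay above every liver. The log2 fold change was 0.76 with a standard error of 0.23 (limma, adjusted p = 0.0238), lost without liver 2 or liver 3 (0.0700 and 0.0853) and without scaling (0.321). Of 16 collagen genes and collagen-folding partners listed, 14 were tested, with a median log2 fold change of 0.63 against -0.04 over all genes. Of the 14, 8 rose and 0 fell, where 10.3% and 8.73% of all genes tested did. Examples are Col1a1 (log2 fold change 2.16), Col4a2 (2.11), Col4a1 (1.81) and Col3a1 (1.57). Tumor 10, highest in Serpinh1, was also highest in the sum of this list (455 against 156 to 252 in livers) and of the fibroblast and stellate markers, of which Col1a1, Col1a2 and Col3a1 rose and Dcn, Lrat and Des fell. Col1a1, Col1a2 and Col3a1 belong to both lists, so these sums are not separate. The part of stromal cells in the Serpinh1 difference was not tested.

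Members of clade B mostly guard cells from their own proteases. Leaving out Serpinb2, counted above with the inhibitors of plasminogen activators, 19 of 25 rows were listed at 0 in every sample after rounding to whole TPM and 4 were tested. Serpinb6b stood at 0, 0.943, 0.945, 0.989, 2.13 and 0.799 in livers 1 to 6, and at 0 (tumor 2) to 7.18 (tumor 5) in tumors, with a median of 2.69 and 10 tumors above every liver. As deposited these are 0 to 2 and 0 to 9 TPM. The log2 fold change was 0.97 with a standard error of 0.33 (limma, adjusted p = 0.0446), and the call held in only 4 of the 18 fits without 1 sample, those without liver 5 and without tumors 2, 3 and 8, with adjusted p up to 0.111. Serpinb6a, which inhibits cathepsin G, was the highest of the clade, above 0 in every sample, at 8.30 ± 5.69 (SD, n = 6) in livers and 16.7 ± 10.05 (SD, n = 12) in tumors. It was not called (log2 fold change 0.91, limma, adjusted p = 0.0854), and it passed without liver 3 or tumor 2 (0.0317 and 0.0311). Serpinb8 and Serpinb9, the granzyme B inhibitor of cytotoxic lymphocytes, lay at or below 5.58 everywhere and were not called. The 9 T and NK cell markers in the table summed to at most 12.4 in any sample, with Klrb1c and Ncr1 at 0 throughout. Both rows of clade I, Serpini1 and Serpini2, were at 0.

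**Figure D4:**
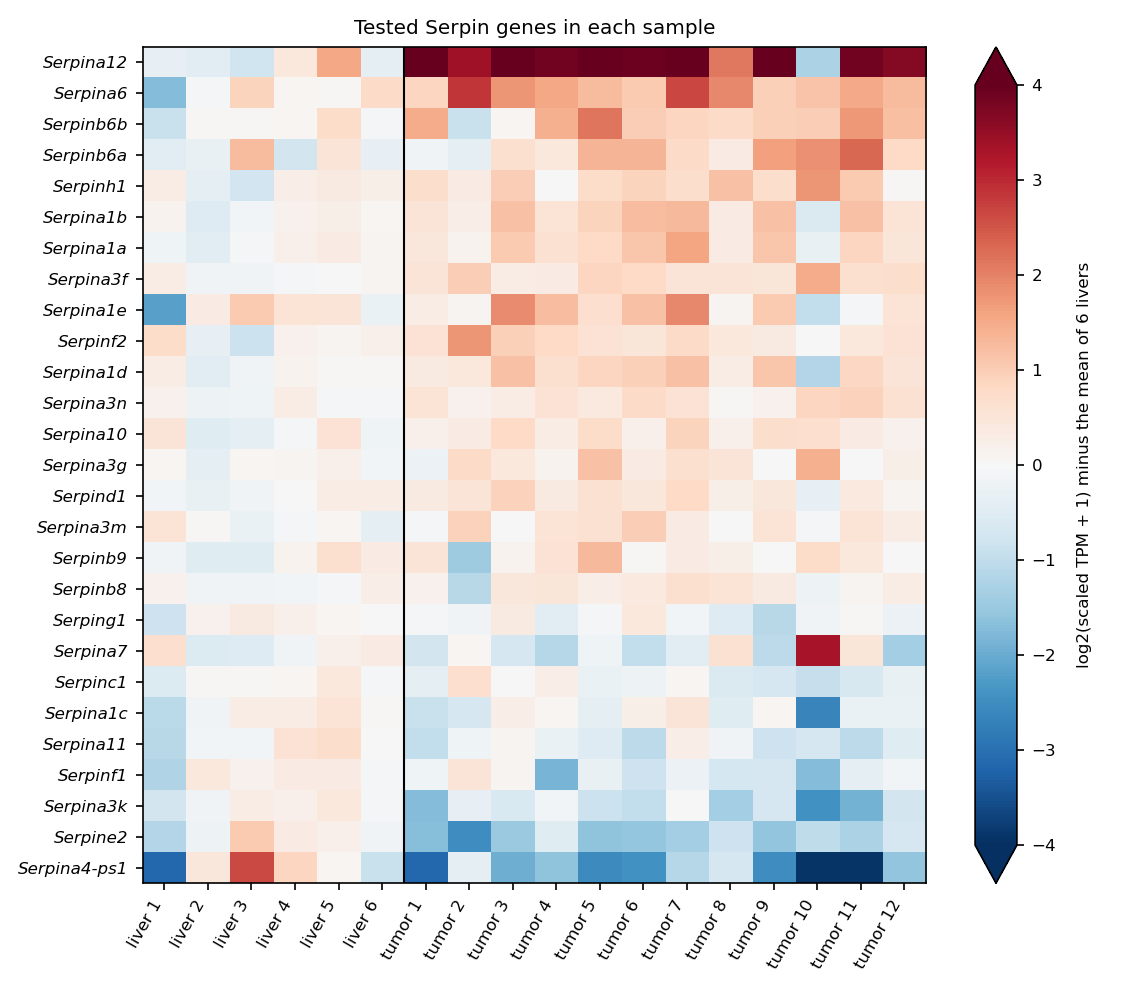
Of the 28 tested Serpin genes, 27 in each sample, colored by log2(scaled TPM + 1) minus the mean of the 6 livers, ordered by the difference between tumors and livers, with livers left of the line and colors that saturate at 4 in either direction. The column of tumor 10 departs from the other tumors at Serpina12 (1.77 scaled TPM), Serpina7 (106) and Serpina1c (719), and that of liver 1 from the other livers at Serpina1e (229) and Serpina6 (22.9).

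Spread was compared between the groups as a description. For 20 of the 28 members (71.4%) the SD of log2 values in tumors exceeded that in livers, and the same held for 71.8% of all genes tested. Serpins together made up 1.92 to 2.57% of a liver's total TPM and 0.414 to 3.31% of a tumor's, lowest in tumor 2. With Siglece left out of the totals the shares were 2.58 to 3.44% and 1.63 to 5.42%, lowest in tumor 10 and highest in tumor 7.

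The proteases that serpins act on, and the activators of these proteases, were followed as a list of 30 genes. Of 24 tested, 4 rose and 3 fell (median log2 fold change -0.07). For this list and for the lists and markers that follow, the shares over all genes tested were 10.3% higher and 8.73% lower. St14, which encodes matriptase, was listed at 0 in every liver and stood at 2.42 ± 2.09 (SD, n = 12) in tumors. Prss8, which encodes the matriptase partner prostasin, rose with a log2 fold change of 1.26. Hgfac, an activator of the Met ligand HGF, rose with one of 0.98. Masp1, a protease of the lectin pathway of complement that Serping1 inhibits, fell by 1.13.

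Of 14 receptors and cofactors of serpins, 9 were tested, 3 rose and 1 fell (median log2 fold change -0.12). Lrp1, the hepatocyte receptor that clears complexes of serpin and protease, fell by 0.97 from 203 ± 49.2 (SD, n = 6) in livers to 108 ± 41.5 (SD, n = 12) in tumors (limma, adjusted p = 0.0104). Plaur, the urokinase receptor, rose with a log2 fold change of 1.18, Sort1 with one of 1.16 and Hspg2, the heparan sulfate proteoglycan perlecan, with one of 0.91. Lrp8 was at 0 in every sample.

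Other protease inhibitors and serpin-fold genes without the Serpin name formed a list of 30 genes. Of 26 tested, 8 rose and 2 fell (median log2 fold change 0.20). Among its called genes the greatest differences were in Spink1, an inhibitor of trypsin (log2 fold change 4.11, listed at 0 in every liver), Slpi, which like alpha-1-antitrypsin inhibits neutrophil elastase (4.11), Kng1 (1.44) and Ahsg (1.20). Slpi averaged 1.31 ± 0.565 (SD, n = 6) in livers against 44.4 ± 23.8 (SD, n = 12) in tumors (limma, adjusted p = 5.27e-08). Of the 23 liver acute phase genes, all tested, 3 rose and 4 fell (median -0.14). Serpina3n is not in this acute phase list, and the part of an acute phase response in its difference was not tested. Among the called acute phase genes the greatest differences were in Hamp, which encodes hepcidin and fell by 4.59, Lcn2 (3.45), Orm3, which fell by 2.62, and Saa4, which fell by 1.33.

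Of 12 hepatocyte transcription factors, 1 rose and 1 fell (Nr1h4, by 0.75), with a median of -0.27. Of 13 genes that export secretory proteins from the endoplasmic reticulum, 1 rose, the chaperone Hspa5 (0.92), and 0 fell (median 0.25). Among hepatocyte markers 1 rose and 3 fell, among cholangiocyte markers 2 of 3 tested rose (Tspan8 and Spp1), among endothelial markers 3 of 10 rose and among macrophage markers 1 of 8 tested fell. Of the pancreatic acinar and squamous markers 1 each was tested and rose, Cela1 and Sprr1a. The marker sums were 2.83 to 8.0 and 0 in livers, and 10.5 to 37.2 and 0 to 68 in tumors. However, 5 of the 8 acinar and 5 of the 7 squamous markers in the table were at 0 in every sample. Of the neutrophil, B and plasma cell and platelet markers, 1, 3 and 2 were tested and 0 called, and none of the mast cell or T and NK cell markers passed the filter. The mast cell markers nevertheless summed to 52.2 in tumor 10, against at most 3.64 in any other sample.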

How the data were processed

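Poly-A RNA of 6 livers and 12 tumors was sequenced in paired-end mode (100 bases). Per the paper's methods, the authors used GRCm38 as genome, Salmon for quantification and TPM for normalization. The numbers in the deposited table are held here as a score, since they are TPM that were rounded: 882 of 900 TPM values in the supplement lie within 0.5 of them, although the methods speak of raw counts. Depth per sample is therefore unknown, and no counting interval is given. In 8 lines an extra separator was dropped.

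For each sample a scale factor was taken as a trimmed mean of log ratios (30% of the ratios and 5% of the mean levels trimmed at each end), and a gene was kept if 6 or more samples reached 1. A pseudocount of 1 was added before taking log2. The test was limma 3.58.1 (R 4.3.3), its prior variance following the mean level, with Benjamini-Hochberg adjustment over all genes kept. Fold changes are on that log2 scale, which understates those of low genes. The fit was tested on simulated data. P-values measure the spread between these samples, and tumors 11 and 12 share 1 mouse.

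The tested members are named, except that the results of 1 member and 1 listed gene are not reported here. Values by sample are given for called members and the 6 most abundant. Members that failed the filter are named from 3 TPM, with Serpinb2, Serpine3, Serpini1 and Serpini2 added as members of a described group. Other genes are named only as called genes of a list, at most 4 a list, or as markers. Members and lists were chosen with earlier results of these data known. The alternatives tried cover scaling, filter, pseudocount, tag, age, replicate block, array weights and leaving out each sample. Transcripts are those of GENCODE on GRCm38, positions and promoters those of RefSeq on GRCm38.p6, and identities were computed with Biopython 1.88. Python 3.11.15, numpy 2.4.6, pandas 2.3.3 and matplotlib 3.10.9 were used.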

Additional observations from a re-analysis of the deposited data

Results flagged for a closer look

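Of the 28 tested members, 3 had a liver that stood apart from the other 5 by a gap beyond Dixon's 95% critical value. Gaps were taken on scaled TPM and not on the log2 values of the tests, where other members may stand out. Chance gives about 1.4 if scaled TPM are normally distributed, which was not tested. For Serpina12 the gap was 0.667 of the range, with liver 5 at 18.1 and the others at 2.83 to 7.92. For Serpina4-ps1 it was 0.723, with liver 3 at 94.5 and the others at 0.717 to 26.7. For Serping1 it was 0.634, with liver 1 at 158 and the others at 284 to 356. Groups of 12 tumors were not examined in this way.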

How the results depend on the processing

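In the main comparison 10 of the 28 tested Serpin genes were called. The number called, whichever genes they were, was 5 with the replicate block (livers and tumors 1 to 6, where the replicate number is only a number) and 5 in the same 12 samples without the replicate block, 3 in E19 samples alone, 2 in E20 samples alone and 21 of 28 with array weights. Over all genes, 2175 were called, 1341 without scaling, 1501 with the replicate block, 1368 in the same 12 samples without it, 1436 in E19 samples, 546 in E20 samples and 4579 with array weights. Same-numbered samples deviated together with a mean correlation of 0.179 over 6 pairs from -0.104 to 0.425, differently numbered ones with -0.0356, and 3 of 6 livers correlated best with their own number. Liver 3 (E20) and tumor 3 (E19), at -0.104, were the only same-numbered pair with different tags. The part of the tag in these correlations was not tested. With 1 sample left out the Serpin calls numbered 5 to 14 and those over all genes 1642 to 3074, and no member differed between tags in any setting run (0). The 3 alternatives for scaling, 2 for the filter, 2 for the pseudocount, tag, age and the average of tumors 11 and 12 gave 7 to 11 Serpin calls. Directions turned for Serpina7 in E19 samples (0.0136), Serpinc1 with and without the block (0.013 and 0.013) and Serping1 likewise (0.0059 and 0.0059), none of them called. Calls were lost most often for Serpinb6b (23 of 32 settings), Serpina3k (14 of 33) and Serpina3n (12 of 33), and once each for Serpina12, Serpina6 and Serpine2. The cause was not tested, except that fewer samples enter the fits by tag and the block. Depth is not kept in TPM, and members near 1 TPM are limited by rounding.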
